A study of Mus musculus with 18 samples.

Results

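The PERK arm of the integrated stress response was described through 10 genes of mouse embryonic fibroblasts (MEFs), chosen by name for their roles in the pathway: Eif2ak3, Atf4, Atf3, Atf5, Ddit3, Ddit4, Trib3, Chac1, Ppp1r15a and Sesn2. They are 10 of 51499 assembled loci in the expression table, and all 10 were among the 11929 loci whose mean over the groups reached 1 FPKM (fragments per kilobase of transcript, scaled to the mapped fragments of the library). Messenger RNA was sequenced from 18 libraries in 6 groups of 3, a labelled genotype (Ago2+/+ or Ago2-/-) by a treatment: the solvent DMSO, tunicamycin (3 µg/ml), an inhibitor of protein N-glycosylation in the lumen of the endoplasmic reticulum (ER), or thapsigargin (500 nM), an inhibitor of the ER calcium pump. By the methods, the stressors acted for 6 h and the control cells were untreated, whereas the labels name DMSO. Both genotypes were MEF cells received as a gift and grown as cultures, with no clone or embryo named, so genotype and origin of the cells cannot be told apart. The libraries labelled Ago2+/+ carry DCR1 in their titles, a name the labels do not explain.

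PERK, encoded by Eif2ak3, is an ER membrane kinase that senses unfolded protein and phosphorylates the translation factor eIF2α. Most translation then slows, while ATF4 is made in larger amounts and activates genes of amino acid supply and redox balance together with further transcription factors, CHOP (Ddit3) among them. GADD34 (Ppp1r15a) brings a phosphatase back to eIF2α and closes the loop. ATF4 is controlled mainly at translation and PERK by phosphorylation, so messenger RNA levels show neither activity directly. In fibroblasts, thapsigargin and tunicamycin are the standard agents to switch the pathway on.

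All 10 messenger RNAs were detected in all 6 groups, those labelled DMSO included. Highest over lowest group, 9 of the 10 genes stayed under 2-fold on the FPKM + 1 scale, and only Eif2ak3 passed it, at 2.94-fold. Of all 11929 loci, 32.3% passed 2-fold over the groups, and of the 7522 loci whose mean reached 10 FPKM, where all 10 genes lie, 22.8% did. For 10 genes a count of 1 is not far from such shares, so it is not read as a trait of these genes. On a scale of equal totals (TPM scale), Atf5 and Atf3 also passed, at 2.06-fold and 2.004-fold. Ddit3 and Atf4 were among the most abundant loci in each group, with percentile ranks among the 11929 loci of at least 97.2 and 98.4. No test was run: the expression values are 1 pooled FPKM per group with no spread over the 3 libraries, the authors' own test columns were not used, and 2-fold serves only as a mark of size.

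The group labels need a reservation that applies to each comparison. Ago2, the gene whose loss defines the Ago2-/- label, stood at 22.1, 5.75 and 17.0 FPKM with the label Ago2+/+ (DMSO, tunicamycin, thapsigargin) and at 5.61, 15.5 and 20.7 FPKM with the label Ago2-/-. It was thus low in 1 group of each label, and nearly as high in the group labelled Ago2-/- thapsigargin as in that labelled Ago2+/+ DMSO. The sources used here do not name the deleted part of the gene. In the profiles of all loci, the 6 groups formed 3 close pairs that cross the labels: Ago2+/+ DMSO with Ago2-/- thapsigargin (pair 1), Ago2+/+ tunicamycin with Ago2-/- DMSO (pair 2), and Ago2+/+ thapsigargin with Ago2-/- tunicamycin (pair 3). Spearman's rho over loci was 0.977 to 0.985 within the close pairs and 0.876 to 0.906 in the other 12 combinations. Genotype labels conflict for 4 of the 18 libraries, which stayed where their titles put them, since a pooled value gives no way to leave a library out. These libraries lie in every group labelled Ago2+/+ and in the group labelled Ago2-/- DMSO. Group names hereafter are those of the labels.

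Fibroblast markers summed to 1596 to 2975 FPKM over 8 genes, with Thy1 at 0 in all groups and Vim making up most of each sum except in pair 3. The other markers varied widely, Col1a1 from 5.97 to 651 FPKM, Col1a2 from 23.7 to 577 FPKM, Fn1 from 46.4 to 599.5 FPKM and Pdgfrb from 0.540 to 17.9 FPKM, and 6 of the 8 were highest in Ago2-/- tunicamycin, as Eif2ak3 was. All 4 epithelial and both endothelial markers and the leukocyte marker Ptprc stayed under 1 FPKM, and Ptprc with Cd68 summed to 1.17 to 1.89 FPKM. The contractile markers Acta2 and Tagln summed to 2292 FPKM in Ago2+/+ thapsigargin and 1695 FPKM in Ago2-/- tunicamycin, against 2.11 to 6.10 FPKM in the other 4 groups. Fewer cells of a type and less RNA per cell cannot be told apart in such bulk samples.

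The sequence before the start of each gene was searched for 3 elements of stress transcription, to show what the genes share that their choice did not use. In the 250 bases before the RefSeq start (GRCm38.p6), both strands were read for the core of the C/EBP-ATF response element (CARE), TGATGNAA, for the cyclic AMP response element (CRE), TGACGTCA, and for the ER stress response element (ERSE), CCAAT and CCACG with 9 bases between. The CARE core was present in Atf3 and Chac1, 2 of the 10 genes and 2 of their 11 windows, and in 3.45% of 32851 promoter windows of the same length. Some windows were not clean upstream sequence, as annotated exons covered 181 of the 250 bases in Ddit3 and 112 in Ppp1r15a. For Trib3, the bases just after the start were not found in annotated transcripts of the gene. The CRE was present in Ppp1r15a alone and in 1.55% of all windows. None of the 10 held the ERSE, which was in 0.113% of all windows, so its absence says little about them. Dnajc3, the only one of their regulators read out here, held it. The bases just after the start of that Dnajc3 window were not found in annotated transcripts of the gene. The windows of Atf3 (chr1:191183334-191183583, minus strand) and Chac1 (chr2:119350992-119351241, plus strand) are printed 5′ to 3′ with the CARE core in capitals, followed by the 30 bases next to the start of Ppp1r15a (chr7:45526269-45526298, minus strand) with the CRE in capitals, and by the window of Eif2ak3 (chr6:70844265-70844514, plus strand), the gene with the widest range, in which none of the 3 was found.
Atf3: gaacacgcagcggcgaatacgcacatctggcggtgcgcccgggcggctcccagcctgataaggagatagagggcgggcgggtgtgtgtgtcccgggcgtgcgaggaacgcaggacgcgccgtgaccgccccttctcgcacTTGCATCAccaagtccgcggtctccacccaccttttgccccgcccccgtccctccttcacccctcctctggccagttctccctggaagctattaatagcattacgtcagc
Chac1: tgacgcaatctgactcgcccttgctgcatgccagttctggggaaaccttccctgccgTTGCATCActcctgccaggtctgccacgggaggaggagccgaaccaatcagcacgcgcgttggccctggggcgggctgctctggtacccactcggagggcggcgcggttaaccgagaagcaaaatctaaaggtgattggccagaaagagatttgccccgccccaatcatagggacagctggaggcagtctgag
Ppp1r15a: gagaccccgcctctccggTGACGTCAgcac
Eif2ak3: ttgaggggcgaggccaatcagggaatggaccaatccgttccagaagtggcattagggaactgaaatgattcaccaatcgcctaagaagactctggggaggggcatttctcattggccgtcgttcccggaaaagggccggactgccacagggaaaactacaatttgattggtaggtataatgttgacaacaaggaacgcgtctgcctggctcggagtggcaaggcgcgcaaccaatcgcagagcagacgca
In both Atf3 and Chac1 the letters read TTGCATCA, the core on the opposite strand, at 110 to 103 bases before the RefSeq start of Atf3 and at 193 to 186 bases before that of Chac1. The RefSeq start of Atf3 lies inside the annotated gene, whose outer 5′ end at 191218039 was not searched. The CRE of Ppp1r15a reads alike on both strands and lies 12 to 5 bases before the start. A match of letters is a description and not a binding site, and the 2 genes with the CARE core did not share a pattern over the groups, as Atf3 was high in the pair of groups in which Chac1 was low.

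Eif2ak3, the PERK kinase itself, lies on chromosome 6 (GRCm38, 70844515 to 70905245, plus strand) and was the least abundant of the 10. Its level was 8.83, 9.09 and 17.4 FPKM in the Ago2+/+ groups (DMSO, tunicamycin, thapsigargin) and 9.29, 20.8 and 6.396 FPKM in the Ago2-/- groups in the same order of treatment. It was high in pair 3, with each other group below 10 FPKM, and lowest in Ago2-/- thapsigargin. The log2 ratio of FPKM + 1 over DMSO was 0.91 for thapsigargin and 0.04 for tunicamycin under the label Ago2+/+, and -0.48 and 1.08 under the label Ago2-/-. So the stressor with the higher Eif2ak3 level was not the same under the 2 labels, and under the label Ago2-/- thapsigargin stood below DMSO. The value of 0.04 turned negative on a scale of equal totals (TPM scale) and against the DMSO group of the other label.

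Between the labels, Eif2ak3 was higher in Ago2-/- than in Ago2+/+ under tunicamycin (log2 ratio 1.11) and lower under thapsigargin (log2 ratio -1.32). Under DMSO the log2 ratio was 0.07. Within the close pairs it was -0.41, 0.03 and 0.24, each smaller in size than the differences under tunicamycin and thapsigargin but not all smaller than that under DMSO. Acta2, Tagln, Col1a1 and Col1a2 were high in the same groups as Eif2ak3, and the part of cell state in this result was not tested. Exons of Eif2ak3 overlap those of Gm43292 on the other strand, and the sources used here do not say whether counting used strand.

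**Figure D1:**
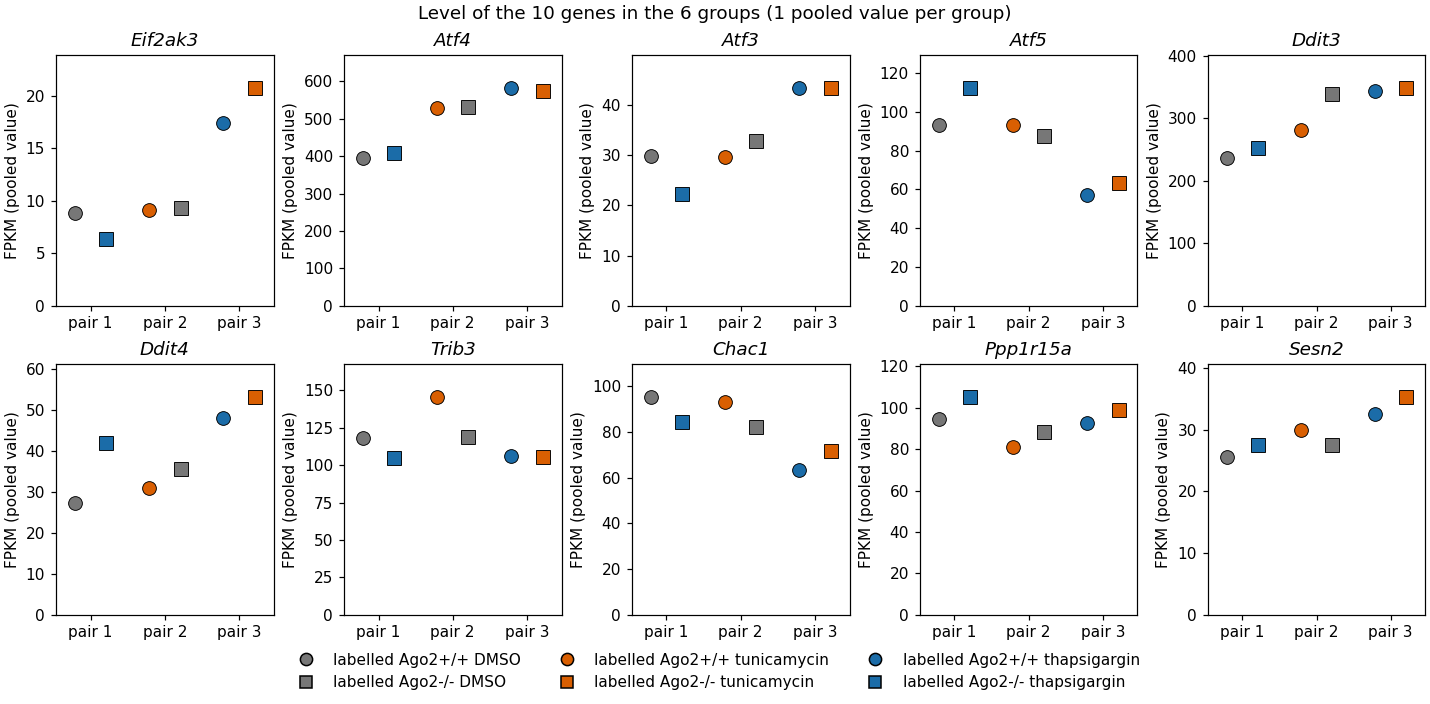
Level of each gene (FPKM, 1 pooled value per group, linear axis from 0) in the 6 labelled groups, set side by side in the 3 close pairs (pair 1, Ago2+/+ DMSO and Ago2-/- thapsigargin, pair 2, Ago2+/+ tunicamycin and Ago2-/- DMSO, pair 3, Ago2+/+ thapsigargin and Ago2-/- tunicamycin). Circles are groups labelled Ago2+/+, squares those labelled Ago2-/-, and colours give the treatment, with no error bars as no spread was available. Eif2ak3 stood at 17.4 and 20.8 FPKM in pair 3 and at 6.396 to 9.29 FPKM elsewhere, whereas Trib3, Ppp1r15a and Sesn2 stayed within 1.39-fold.

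The transcription factors of the arm came next in order of action. Atf4, the central activator, lies on chromosome 15 (80255184 to 80257541, plus strand) and was the most abundant of the 10, with a mean of 503 FPKM. It was listed at 394, 528 and 583 FPKM in Ago2+/+ under DMSO, tunicamycin and thapsigargin, and at 532, 575 and 407 FPKM in Ago2-/-. Both groups of pair 1 were low and the other 4 groups lay within 527.9 to 582.9 FPKM, a range of 1.48-fold in all. The DMSO groups of the 2 labels were thus 394 and 532 FPKM, a log2 ratio of 0.43, which is as wide as the ratio of tunicamycin over DMSO under the label Ago2+/+ (0.42).

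Ddit3, which encodes CHOP and is widely read as a marker of ER stress, lies on chromosome 10 (127290774 to 127296288, plus strand). Its level was 237, 282 and 345 FPKM in the Ago2+/+ groups and 339, 349 and 253 FPKM in the Ago2-/- groups, in the same order. The group labelled Ago2-/- DMSO stood above 3 groups, among them the thapsigargin group of its own label, and only pair 3 was higher. Over DMSO, the log2 ratios were 0.25 (tunicamycin) and 0.54 (thapsigargin) under Ago2+/+, and 0.04 and -0.42 under Ago2-/-. With the DMSO group of the other label as baseline, the first became -0.26 and the last 0.09. Exons of Ddit3 overlap those of Mars and Gm4189 on the other strand and a further annotated Ddit3 gene, so fragments could have been shared among them.

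Atf3, a stress-induced factor downstream of ATF4, lies on chromosome 1 (191170296 to 191218039, minus strand). It was listed at 29.7, 29.5 and 43.3 FPKM in Ago2+/+ and at 32.8, 43.4 and 22.2 FPKM in Ago2-/-. The groups of pair 3 were 43.3 and 43.4 FPKM, above each other group, and Ago2-/- thapsigargin was lowest. Its range of 1.91-fold was just under the mark, and on the TPM scale it came to 2.004-fold, just past it. The widest ratio between labels was at thapsigargin, with a log2 ratio of -0.93.

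Atf5, a factor of the same family that is likewise controlled at translation, lies on chromosome 7 (44812256 to 44816658, minus strand) and had the opposite order. Levels were 93.1, 93.3 and 57.2 FPKM in the Ago2+/+ groups and 87.6, 63.5 and 112 FPKM in the Ago2-/- groups. Pair 3 was lowest here and Ago2-/- thapsigargin highest, a range of 1.95-fold that became 2.06-fold on the TPM scale. Under thapsigargin, the Ago2-/- group stood above the Ago2+/+ group by a log2 ratio of 0.96, the reverse of Eif2ak3 and Atf3. Exons of Atf5 overlap those of Il4i1 and Nup62 on the other strand, and its assembled region in the table spans further genes, Akt1s1 and Tbc1d17.

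Among the targets of these factors, Trib3, a pseudokinase that restrains AKT and ATF4 signalling, lies on chromosome 2 (152337422 to 152344032, minus strand). It was listed at 118, 146 and 106 FPKM in Ago2+/+ and at 119, 106 and 105 FPKM in Ago2-/-. Only Ago2+/+ tunicamycin stood apart, 1.22 times the next group, while the other 5 groups lay between 104.6 and 119.1 FPKM. Under the label Ago2-/-, both stressors gave log2 ratios below 0 (-0.17 for tunicamycin and -0.19 for thapsigargin), and the first came to 0 on the TPM scale.

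Chac1, which degrades glutathione, lies on chromosome 2 (119351229 to 119354381, plus strand). Its levels were 95.6, 93.2 and 63.5 FPKM in the Ago2+/+ groups and 82.3, 71.8 and 84.4 FPKM in the Ago2-/- groups. It was highest in Ago2+/+ DMSO and lowest in pair 3, a range of 1.497-fold. The largest ratio to DMSO was at thapsigargin under Ago2+/+, with a log2 ratio of -0.58.

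Sesn2, a leucine sensor that limits mTORC1, lies on chromosome 4 (132492032 to 132510501, minus strand). It stood at 25.6, 29.9 and 32.5 FPKM in Ago2+/+ and at 27.5, 35.3 and 27.6 FPKM in Ago2-/-. Of the 10 genes it was the only one above both DMSO groups in all 4 stressed groups, an order found in 2.17% of all loci, but its whole range was 1.37-fold and the closest stressed and DMSO groups, both labelled Ago2-/-, differed by a log2 ratio of 0.0025.

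Ddit4 (REDD1), another brake on mTORC1, lies on chromosome 10 (59949669 to 59951834, minus strand). It was listed at 27.4, 31.0 and 48.0 FPKM in Ago2+/+ and at 35.7, 53.3 and 41.9 FPKM in Ago2-/-. Within each label, both stressors lay above DMSO, with log2 ratios of 0.18 and 0.79 for tunicamycin and thapsigargin under Ago2+/+ and of 0.56 and 0.22 under Ago2-/-. It was also the only gene of the 10 that differed as much within a close pair as between them, by 1.53 times in FPKM between Ago2-/- thapsigargin and Ago2+/+ DMSO against 1.52 times between the highest and lowest pair means.

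Ppp1r15a (GADD34), which closes the loop by dephosphorylation of eIF2α, lies on chromosome 7 (45522916 to 45526268, minus strand) and had the narrowest range, 1.298-fold. Levels were 94.5, 81.0 and 92.9 FPKM in the Ago2+/+ groups and 88.1, 99.0 and 105 FPKM in the Ago2-/- groups. Under Ago2+/+ both stressors lay at or below DMSO (log2 ratios of -0.22 and -0.03), and under Ago2-/- both lay above it (0.17 and 0.26). The value of -0.03 became 0.07 against the other DMSO group. Exons of Ppp1r15a overlap those of Tulp2, and its assembled region in the table spans further genes, Bax and Nucb1 among them.

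Counted over the 10 genes, the stress comparisons gave 0 or 1 gene past 2-fold in each direction. Shares of 5.46% to 9.5% of all loci would give counts as low for 10 genes. Tunicamycin over DMSO under Ago2+/+ had 0 of 10 genes at least 2-fold higher (7.7% of all loci) and 0 lower (6.32%), with a median log2 ratio of 0.11, and thapsigargin had 0 higher (7.44%) and 0 lower (5.46%), with a median of 0.43. Under Ago2-/-, tunicamycin had 1 of 10 higher, Eif2ak3 (9.5%), and 0 lower (8.36%), with a median of 0.14, and thapsigargin had 0 higher (6.31%) and 0 lower (7.99%), with a median of -0.09. The median over all loci was within 0.026 of 0 in each comparison. The comparisons of 1 label share their DMSO group and are not independent. On the TPM scale, which moved ratios by up to 0.197 (log2), the median for tunicamycin under Ago2+/+ became -0.06 and that for thapsigargin under Ago2-/- became 0.03.

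In order of level, 5 of the 10 genes were higher in both stressed groups than in DMSO under Ago2+/+ (Eif2ak3, Atf4, Ddit3, Ddit4 and Sesn2), where 30.6% of all loci were. On the TPM scale 4 were, without Eif2ak3. Under Ago2-/- 3 of 10 were (Ddit4, Ppp1r15a and Sesn2), against 34.4% of loci. Only Ddit4 and Sesn2 were in both counts.

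Between the labels, the counts were as low, and again near what the shares of all loci would give for 10 genes. Under DMSO, Ago2-/- over Ago2+/+ gave 0 of 10 genes at least 2-fold higher (7.99% of loci) and 0 lower (6.38%). Under tunicamycin 1 was higher, Eif2ak3 (9.39%), and 0 lower (7.92%). Under thapsigargin 0 were higher (5.58%) and 1 lower, again Eif2ak3 (8.19%). The medians were log2 ratios of 0.08, 0.26 and -0.21, of which the first became -0.06 on the TPM scale. Over all 15 pairs of groups, Eif2ak3 was past 2-fold in 5 and no pair had a further gene past it. In those 5 pairs, 13.2% to 17.9% of all loci were past 2-fold in either direction, so 1 of 10 genes is near the share.

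**Figure D2:**
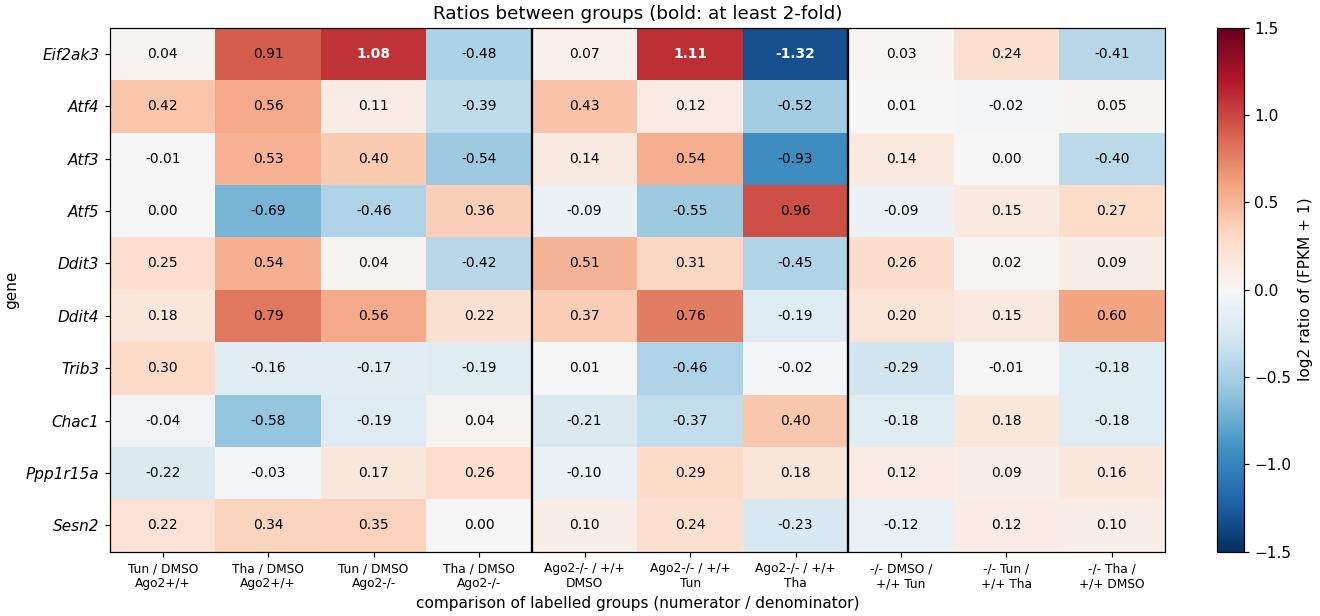
Log2 ratio of FPKM + 1 for each gene (rows) in 4 stress comparisons, 3 label comparisons and 3 close pairs (columns, separated by lines, Tun for tunicamycin and Tha for thapsigargin), red for higher and blue for lower in the group named first. Eif2ak3 alone passed 2-fold, with 1.08, 1.11 and -1.32, and the largest value in the columns of close pairs was 0.60, for Ddit4.

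The levels were mostly closer within the close pairs than between them, and a like spread by treatment label was not computed. The pairs were chosen with results of the same data known. In 9 of 10 genes, Ddit4 excepted, the means of the 3 pairs spread wider than any ratio within a pair, as in 84.8% of all loci, so the 10 genes shared this with the table at large. On the TPM scale 9 of 10 did as well, with Trib3 the exception in place of Ddit4. Within the pairs 0 of 10 genes passed 2-fold in Ago2-/- DMSO over Ago2+/+ tunicamycin (1.04% of loci), in Ago2-/- tunicamycin over Ago2+/+ thapsigargin (0.998%) and in Ago2-/- thapsigargin over Ago2+/+ DMSO (1.87%). The largest ratios there were 1.22-fold (Trib3), 1.18-fold (Eif2ak3) and 1.51-fold (Ddit4). For all loci the median ratio within these pairs, in either direction, was 1.06, 1.08 and 1.11-fold.

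By rank, pair 3 held the top or the bottom places in most of the genes. In 6 of 10 genes (Eif2ak3, Atf4, Atf3, Ddit3, Ddit4 and Sesn2), Ago2+/+ thapsigargin and Ago2-/- tunicamycin were both above the other 4 groups, an order held by 26% of all loci. In 2 of 10, Atf5 and Chac1, both were below the other 4, as in 23.8% of loci. Both counts were the same on the TPM scale. Trib3 and Ppp1r15a had neither order. The step from pair 3 to the nearest other group was small in several of them, 1.02 times in FPKM for Ddit3, 1.08 times for Atf4 and 1.14 times for Ddit4, against 1.88 times for Eif2ak3, 1.32 times for Atf3 and 1.38 times for Atf5.

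**Figure D3:**
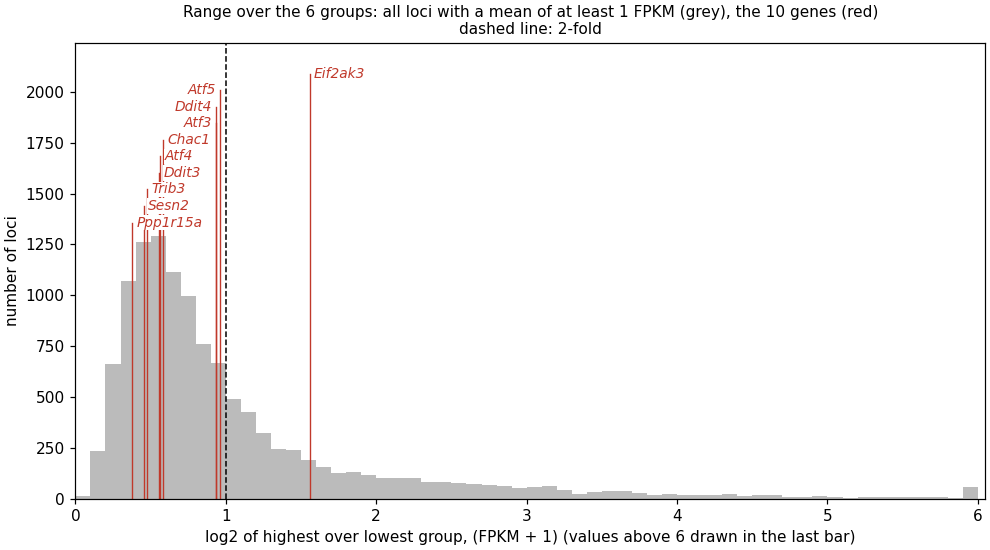
Number of loci (y axis) by the log2 ratio of highest over lowest group on FPKM + 1 (x axis) for the 11929 loci whose mean reached 1 FPKM, with the 10 genes as red lines and 2-fold as a dashed line. Of the 10, 9 lie left of the line, 3 of them (Atf3, Ddit4 and Atf5, 1.91 to 1.95-fold) close to it, and Eif2ak3 lies right of it at 1.56.

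Eif2ak3 was the only gene with a range wide enough to seek loci of like pattern. Among 2419 candidate loci of 1 gene each, at or above 1 FPKM in every group and with a range of at least 2-fold, 125 had a Pearson's r of at least 0.95 with it over the 6 groups on log2(FPKM + 1). The 2 highest were Sparc (r = 0.998), a secreted collagen-binding glycoprotein, and Gmppb (r = 0.997), an enzyme that makes the mannose donor of glycosylation. Sparc stood at 221, 227 and 664 FPKM in the Ago2+/+ groups and at 214, 863 and 127 FPKM in the Ago2-/- groups. Gmppb stood at 12.6, 13.6 and 36.2 FPKM and at 15.7, 43.4 and 8.17 FPKM in the same order. With 6 pooled points in 3 close pairs, many loci share such a pattern, and by Spearman's rho 56 tied at 1.

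The other genes of the pathway were read from lists of their roles, each count over the groups to be set against the 32.3% of all loci past 2-fold. None of the 3 other eIF2 kinases passed 2-fold over the groups, Eif2ak2 (PKR) having the widest range at 1.54-fold, and none of the 8 subunits of eIF2 and its exchange factor eIF2B did, where Eif2b2 came closest at 1.99-fold. Of 6 regulators, substrates and phosphatase partners of PERK signalling, 4 passed it over the groups. Dnajc3 (p58IPK), an inhibitor of eIF2 kinases, was listed at 45.6, 71.1 and 110 FPKM in Ago2+/+ and at 67.2, 118 and 21.5 FPKM in Ago2-/-, the same highest and lowest groups as Eif2ak3. Nfe2l2 (NRF2), a PERK substrate of the antioxidant response, was high in pair 2 only, at 87.0 and 97.5 FPKM against 36.8 to 44.8 FPKM elsewhere. Hspa5 (BiP), the chaperone that holds PERK inactive, was also highest in pair 2, at 6746 and 7682 FPKM, against 4808 FPKM in Ago2+/+ DMSO and 3677 FPKM in Ago2-/- thapsigargin. Ppp1ca, a catalytic subunit of the phosphatase, was near 1 FPKM in 5 groups and at 6.54 FPKM in Ago2-/- tunicamycin. It thus differed within pair 3 by a log2 ratio of 1.83, where 0.998% of all loci passed 2-fold. With a mean of 1.92 FPKM it lay near the filter of 1 FPKM, so its place among the 4 rests on low values and 1 group.

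Of 6 partners of ATF4 and CHOP with a basic leucine zipper, 5 had a mean of at least 1 FPKM and 4 passed 2-fold over the groups. Cebpb, a dimer partner of CHOP, was highest in pair 2, at 39.9 FPKM in Ago2+/+ tunicamycin and 43.0 FPKM in Ago2-/- DMSO, against 14.2 to 23.0 FPKM in the other 4 groups. Fos was highest in the same pair, at 4.99 and 8.59 FPKM, and Cebpa was above 1 FPKM only there, at 3.15 and 2.89 FPKM. Jun was lowest there, at 17.7 and 15.0 FPKM, and highest in Ago2-/- thapsigargin, at 38.1 FPKM.

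Of 20 further reported ATF4 or CHOP targets with a locus in the table (21 were listed, Slc7a5 having no row of its own), 7 passed 2-fold over the groups, a share near the 32.3% of all loci. Tunicamycin over DMSO under Ago2+/+ had 3 of 20 higher (7.7% of loci) and 1 lower (6.32%), and thapsigargin had 3 higher (7.44%) and 0 lower (5.46%). Under Ago2-/-, tunicamycin had 3 higher (9.5%) and 2 lower (8.36%), and thapsigargin 2 higher (6.31%) and 2 lower (7.99%). The widest ranges among the 20 were those of Vldlr, Stc2 and Gdf15. Vldlr, a lipoprotein receptor, was listed at 0.565, 3.68 and 25.7 FPKM in Ago2+/+ and at 3.82, 28.2 and 9.24 FPKM in Ago2-/-. It was above DMSO in all 4 stress comparisons, though the level of Ago2-/- DMSO was close to that of Ago2+/+ tunicamycin. Within pair 1 it differed by a log2 ratio of 2.71, Ago2-/- thapsigargin over Ago2+/+ DMSO. Stc2, a secreted glycoprotein, was at 0.470, 13.7 and 6.37 FPKM in Ago2+/+ and at 14.9, 5.83 and 0.254 FPKM in Ago2-/-, so it was above DMSO with both stressors under one label and below it with both under the other. Gdf15, a stress hormone, was at 5.67 and 7.41 FPKM in pair 3 and under 1 FPKM in the other 4 groups. Fgf21, a hormone of fasting, was highest in Ago2-/- tunicamycin at 9.83 FPKM and lowest in pair 2, at 1.58 and 1.62 FPKM. In contrast, Asns, asparagine synthetase and a classical ATF4 target, stayed under 2-fold, at 150 to 285 FPKM, and was highest in pair 3.

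Of 6 paralogs of the 10 genes, 3 passed 2-fold over the groups. Trib1 was highest in pair 2, at 9.13 and 10.95 FPKM, far below the level of Trib3. Trib2 was lowest in pair 3, at 0.224 and 0.227 FPKM. Sesn3 was highest in pair 3, at 8.13 and 10.9 FPKM, as Sesn2 was.

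For comparison, 6 of 12 targets of the ATF6 and IRE1 arms passed 2-fold over the groups, against 1 of the 10 genes of the PERK arm, with medians of the range of 1.02 and 0.57 on the log2 scale. All loci had a median range of 0.73, and those whose mean reached 10 FPKM one of 0.64. The 6 were Dnajb9, Creld2, Edem1, Hyou1, Herpud1 and Sdf2l1. Under thapsigargin, 6 of the 12 were at least 2-fold lower in Ago2-/- than in Ago2+/+, against 8.19% of all loci. They were the same 6 genes, already picked for a wide range over these groups, and Eif2ak3 was lower there as well. Dnajb9 (ERdj4), an ER co-chaperone, was listed at 9.86, 28.2 and 31.4 FPKM in Ago2+/+ and at 29.0, 35.7 and 9.05 FPKM in Ago2-/-. Pair 1 was low, with the other 4 groups between 28.2 and 35.7 FPKM, so again a DMSO group stood with the stressed groups. Creld2, another ER stress gene, was lowest in Ago2-/- thapsigargin, at 102 FPKM, against 467 FPKM in Ago2-/- tunicamycin.

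**Figure D4:**
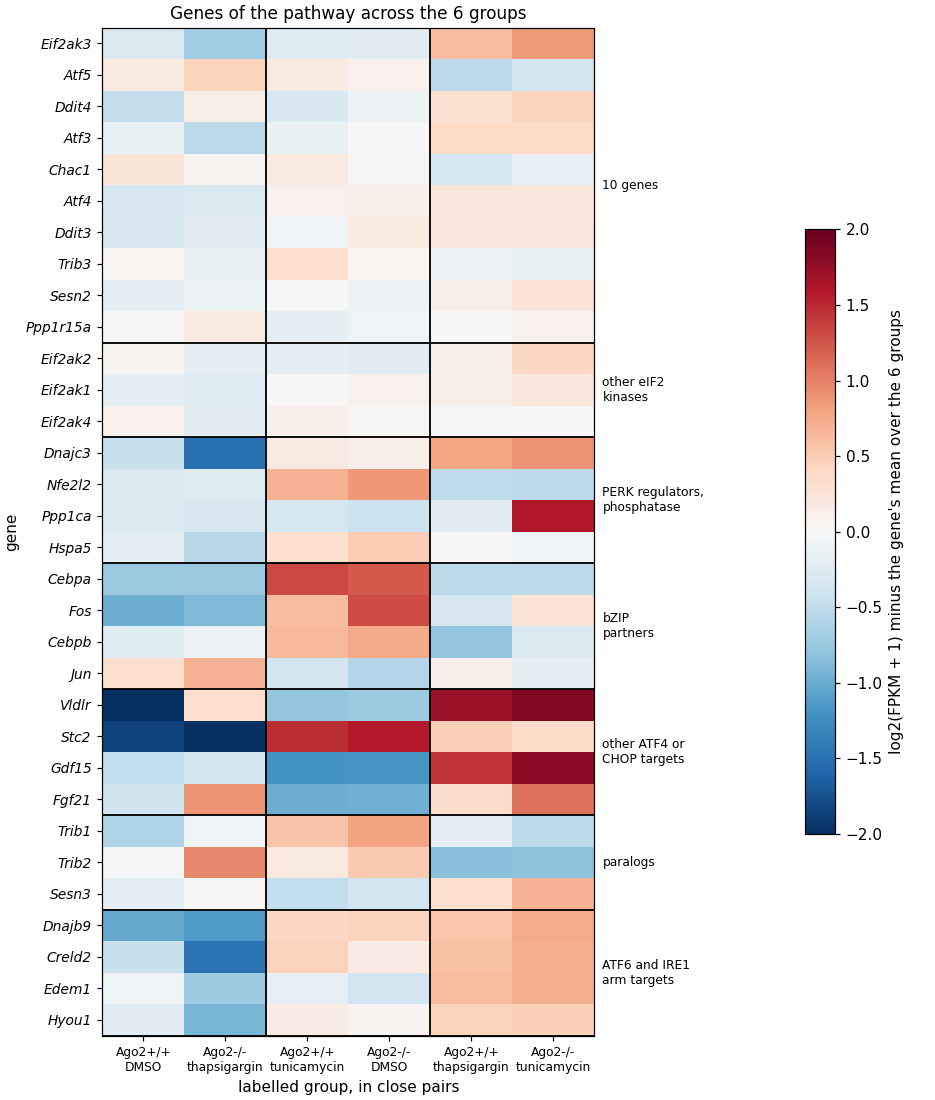
Log2(FPKM + 1) minus the mean of each gene over the 6 groups (colour, cut at 2 in either direction) for the 10 genes and the leading genes of 6 further lists (rows), with the labelled groups side by side in close pairs (columns). Of the 10 genes, all but Eif2ak3 are pale. Vldlr, Stc2 and Gdf15, from the list of further targets and picked for their changes, have the widest ranges of the rows. Neighbouring columns of a pair share their colours in most rows.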

How the data were processed

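Messenger RNA of 18 libraries was sequenced, 3 for each of 6 groups. The deposited table holds FPKM values that the authors pooled per group. By the methods and the submitters' processing notes, reads were checked with FastQC 0.11.7, aligned with HISAT2 2.1.0 to mouse (GRCm38, Ensembl release 91), assembled with StringTie 1.3.4d and quantified with Cuffdiff 2.2.1. Library scaling, strandedness and depth were not found in the sources used here. FPKM carries no counts, so no interval or floor was computed. The table also holds the authors' fold changes, test statistics and p-values for each of 15 pairs of groups, which were not used.

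With Python 3.11.15, pandas 2.3.3 and numpy 2.4.6, 1 value per locus and group was taken from 772485 rows. Ratios are log2 of FPKM plus a pseudocount of 1, which understates the change of low genes, and 2-fold marks size among loci whose mean over the groups reached 1 FPKM. The ratio script was tested on simulated data. From each further list, up to 4 loci past 2-fold in the most comparisons were named, ties by range, with any gene needed for a small count, and Asns, Cebpa and the marker genes besides. For Eif2ak3, the only gene with a range of at least 2-fold, the 2 single-gene loci of highest Pearson's r were named. The genes, lists and close pairs were chosen with earlier results of these data known. Gene positions are from GENCODE M21 (GRCm38) and promoters from RefSeq. Alternatives changed the pseudocount, scale, centring, filter, fold and DMSO baseline.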

Additional observations from a re-analysis of the deposited data

How the results depend on the processing

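No paired analysis was possible because each group has 1 pooled value that carries no replicate number, and for the same reason no replicate could be left out. With a fold of 1.5 in place of 2, 3 of the 10 genes passed for thapsigargin over DMSO under Ago2+/+, 2 for Ago2-/- over Ago2+/+ under tunicamycin, 3 under thapsigargin, 1 for Ago2-/- thapsigargin over Ago2+/+ DMSO, and 4 over the 6 groups, where 63.6% of loci passed. On the TPM scale 2 genes passed for Ago2-/- over Ago2+/+ under thapsigargin (Eif2ak3 and Atf5) and 3 over the 6 groups (with Atf3). The shares of all loci are not given for the single comparisons at 1.5-fold or for the TPM scale. Those counts are therefore not read as a result about the 10 genes. The share of loci past 2-fold over the groups was 17.2% with no filter on low values and 22.8% at a mean of at least 10 FPKM, a filter chosen after seeing the data. The cause was not tested. No call turned its direction. Among 100 ratios of the 10 genes, the sign changed in 10 on the TPM scale, in 2 after centring on the median of all loci and in 0 with either pseudocount, and with the other DMSO group as baseline in 9 of 40.

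Depth is unknown, and the pooled FPKM carry no spread over libraries, so no ratio was set against replicate error here, and the authors' test columns were not used. Results could not be recomputed without the 4 libraries of conflicting labels.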
